A study of Homo sapiens with 20 samples.

Results

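The genes described here had more RNA after estradiol (E2) than after its vehicle at both 3 h and 24 h in SUM44, an established human breast cancer line derived from invasive lobular carcinoma. Each gene was read from its brightest probe set that carries a single gene symbol. The genes were chosen by these measured levels: the mean had to be at least 1.5-fold higher with E2 at 3 h and again at 24 h, and to reach a log2 level of 6.5 on the 24 h E2 arrays. Of 11963 genes measured, 326 (2.73%) met the 3 h difference, 361 (3.02%) met the 24 h difference, and 139 met both. The level minimum left out 7 of these, so 132 genes (1.1%) were members. The E2 and vehicle arrays chose the genes, so every E2 minus vehicle value of a member is a description and carries no test.

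Cells had been kept without hormone for 3 days in charcoal-stripped serum in all 5 groups. Groups of 4 arrays each held cells at 0 h (the baseline), cells given 0.01% ethanol vehicle for 3 h or 24 h, and cells given 1 nM E2 in that vehicle for 3 h or 24 h. RNA was hybridised to Affymetrix human expression arrays, and the deposited values are log2 levels per probe set. The replicates are called biological in the series text, and all come from 1 cell line. The 24 h E2 arrays are called baseline in 1 label field but E2 in title and description, and the title was followed. The serum is given as 2% in the series text and 10% in the sample text.

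Arrays of a group correlated at 0.998 to 0.999 over all genes, and no pair of the 190 held identical values. All 10 luminal epithelial markers lay above 6.11, the level below which 25% of all genes fell and which is called dim here. Of the markers of other cell types that were measured, 2 of 3 basal, 2 of 4 endothelial, 3 of 4 immune and 3 of 7 stromal genes lay below it in all 5 groups. For ACTB, the 3' control probe set minus the 5' one, a sign of RNA integrity, averaged 0.466 at baseline, 0.315 in vehicle and 0.385 in E2 at 3 h, and 0.397 in vehicle and 0.384 in E2 at 24 h. For GAPDH the same difference averaged -0.124 at baseline, -0.116 in vehicle and -0.138 in E2 at 3 h, and -0.117 and -0.148 at 24 h. The gap between baseline and 3 h vehicle seen for ACTB was thus absent for GAPDH. The part of RNA integrity in the results was not tested. In RNA from whole cultures, a change in the number of responding cells and a change in RNA per cell cannot be told apart.

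Estradiol acts through the estrogen receptor, a ligand-activated transcription factor that binds response elements in DNA, many of them far from gene starts, and that also works through other factors bound to DNA. In luminal breast cancer cells it is known for raising growth signalling, cell cycle entry and secretory and metabolic genes. A transcript that is high both early and late can reflect lasting transcription, a stable RNA, or later factors acting on the same gene, and steady-state levels do not separate these.

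The E2 effect ran from 0.59 to 4.18 on the log2 scale at 3 h, with a median of 1.13, and from 0.59 to 4.21 at 24 h, with a median of 1.01. The corresponding medians over all genes were 0.0002 and 0.02. As folds, the effects reached 18.1 at 3 h and 18.5 at 24 h, with medians of 2.19 and 2.01. An effect of at least 1, which is 2-fold, was seen for 85 members at 3 h, 66 at 24 h and 48 at both. An effect of at least 2 was seen for 16 members at 3 h and 9 at 24 h, and EGR3 and RASGRP1 were the 2 genes that reached it at both times.

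**Figure D1:**
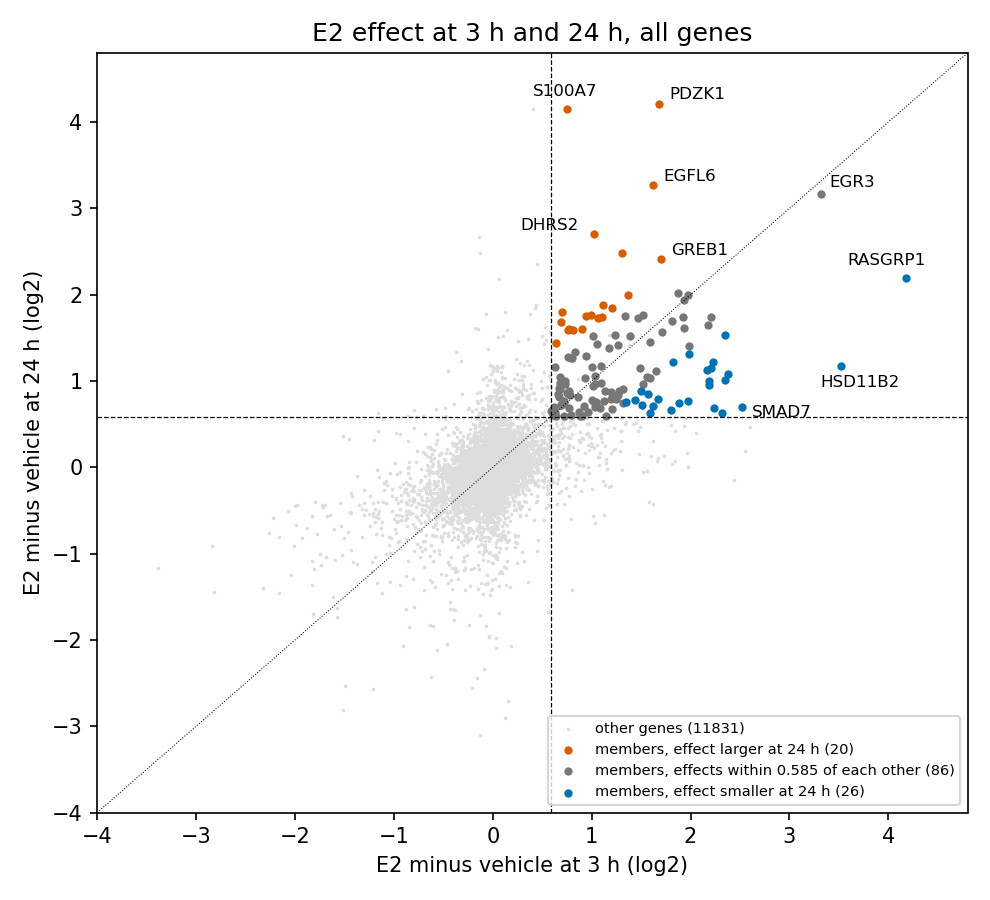
Each point is 1 gene, with its E2 minus vehicle difference at 3 h on the x axis and at 24 h on the y axis, both in log2 units; dashed lines mark the 1.5-fold minimum. Coloured points are the 132 members, which extend along both axes: S100A7 and PDZK1 sit high on the 24 h axis, while RASGRP1, HSD11B2 and SMAD7 sit far along the 3 h axis.

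All 132 members were also called higher by limma with a Benjamini-Hochberg adjusted p under 0.05 at each time, against 13.5% of all genes at 3 h and 21.5% at 24 h. Their 4 E2 arrays all lay above their 4 vehicle arrays at each time, against 13.4% and 18.8% of all genes. Both counts follow from the way the genes were chosen. The genes nearest the limits show where the choice fell. KRT19 at 0.59, MYOZ1 at 0.61, FKBP4 at 0.62 and SFMBT1 at 0.63 lay just inside the 3 h limit. DTL at 0.58, SSR3 at 0.56, SLC35E3 at 0.55 and MAPT at 0.54 lay just outside it. At 24 h APOA1, PTPN1, TRAF3IP2 and DSN1 lay just inside at 0.59 to 0.60. ZFP36 and SRPK1 at 0.58 and MXD1 and PITX1 at 0.57 lay just outside. On the level minimum CITED1 at 6.66 was the nearest member, and PLCL2 at 6.47 was the nearest gene left out.

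The baseline arrays had no part in the choice. For all 132 members the 4 E2 arrays lay above the 4 baseline arrays at both times, which was so for 8.53% of all genes (15.6% at 3 h and 18.7% at 24 h taken alone). E2 minus baseline ran from 0.34 to 4.32 at 3 h, with a median of 1.12, and from 0.39 to 3.90 at 24 h, with a median of 0.93. It reached 1.5-fold for 122 members at 3 h, for 114 at 24 h and for 108 at both. The E2 arrays are shared with the choice of the genes, so these values are a description too. Averaged over the members and set against the baseline mean, the 4 E2 arrays lay at 1.23 to 1.29 at 3 h and at 1.07 to 1.17 at 24 h. The vehicle arrays lay at -0.06 to -0.03 and at -0.12 to -0.07, and the baseline arrays at -0.06 to 0.05, overlapping the 3 h vehicle arrays. The genes were chosen for E2 above vehicle on these arrays, so the gap between E2 and vehicle follows from the choice.

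**Figure D2:**
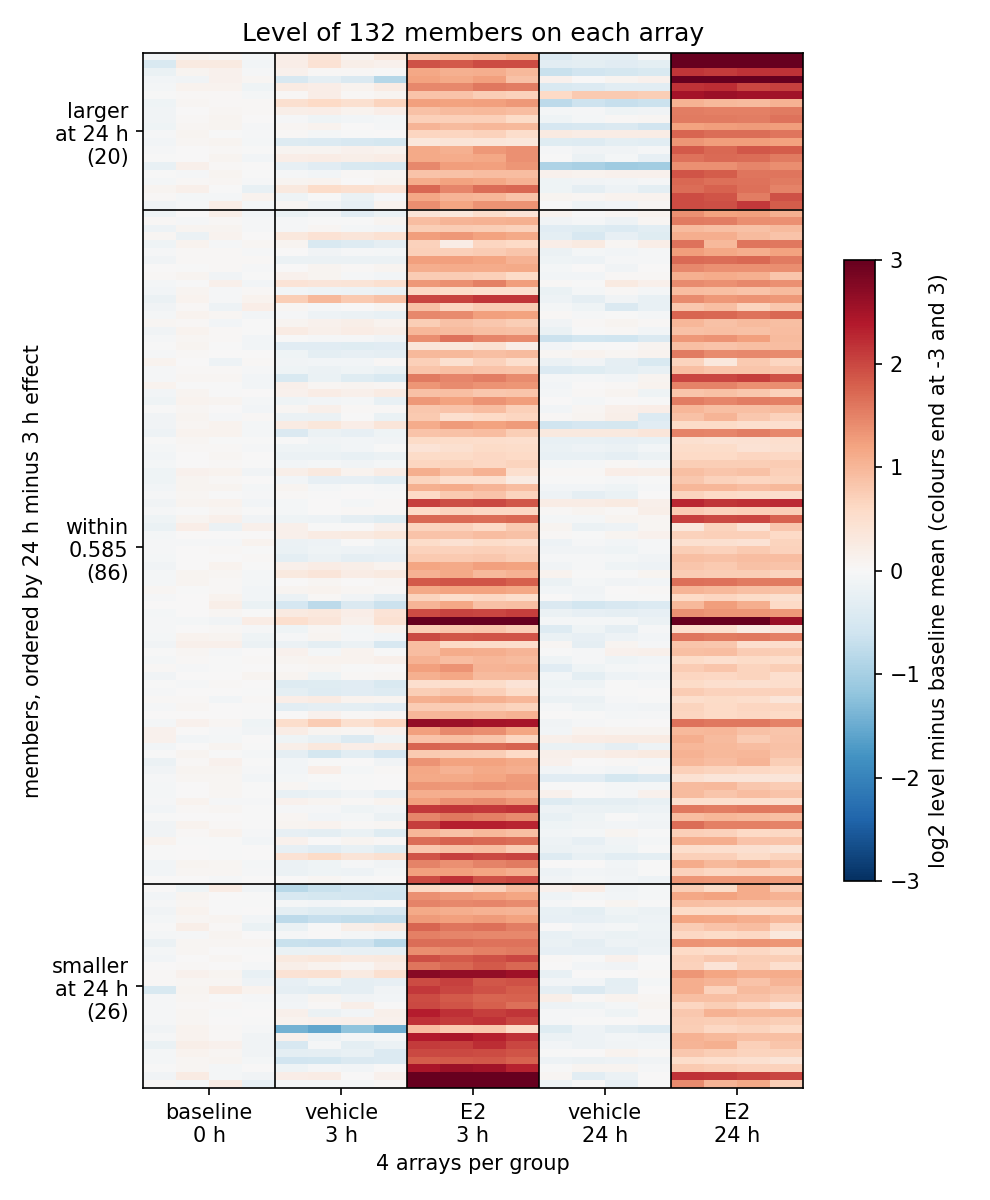
Each of the 132 lines of the map is 1 member and each column 1 of the 20 arrays, coloured by the log2 level minus the gene's baseline mean and ordered by the 24 h effect minus the 3 h effect. The E2 columns are above baseline across the members at both times, and the vehicle columns stay near 0 apart from single genes.

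Members fell into 3 classes by how the effects at the 2 times compared. The effect at 24 h was larger than that at 3 h by a factor of at least 1.5 in 20 members, smaller by as much in 26, and within that band in 86. In the first class the median effect was 1.01 at 3 h and 1.78 at 24 h. In the class with the smaller late effect it was 2.07 and 0.87. Of those 26, 23 had their 24 h E2 arrays all below their 3 h E2 arrays, and 17 of the 20 had them all above. The E2 arrays are part of the effects that define the classes, so this is not separate support. Over all members 64 (48.5%) had 24 h E2 arrays below the 3 h E2 arrays and 38 (28.8%) had them above, while each was so for 19.6% of all genes. The E2 arrays also chose the members, so the choice shapes these shares and they are a description.

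RASGRP1, an exchange factor that loads Ras with GTP, had the largest 3 h effect. It read 6.65, 6.66, 6.45 and 6.56 on the 3 h vehicle arrays and 10.87, 10.82, 10.72 and 10.64 with E2. At 24 h it read 6.51, 6.14, 6.28 and 6.45 in vehicle and 8.60, 8.60, 8.51 and 8.44 with E2. The E2 arrays stood well clear of the vehicle arrays at both times and were about 2 log2 units lower at 24 h than at 3 h. The effect was 4.18 at 3 h, which is 18.1-fold, and 2.19 at 24 h, which is 4.58-fold. The promoter of RASGRP1 is shown with those of 4 other members of this account, RET, SPRY4, PDZK1 and S100A7. These promoters are examples only, chosen from among the largest effects at 3 h or at 24 h. They are the 250 bases before the start site in the RefSeq promoter table (GRCh38.p14), 5' to 3' on the gene's strand. Capitals mark matches on either strand to the EGR motif GCGNGGGCG or the SP1 motif GGGCGG.
RASGRP1, chr15:38564815-38565064, minus strand: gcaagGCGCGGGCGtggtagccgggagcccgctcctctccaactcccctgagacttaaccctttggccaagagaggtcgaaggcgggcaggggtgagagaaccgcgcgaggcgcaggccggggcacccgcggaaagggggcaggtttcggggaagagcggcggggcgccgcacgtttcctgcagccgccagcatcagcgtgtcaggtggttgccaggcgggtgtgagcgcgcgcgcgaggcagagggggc
RET, chr10:43076819-43077068, plus strand: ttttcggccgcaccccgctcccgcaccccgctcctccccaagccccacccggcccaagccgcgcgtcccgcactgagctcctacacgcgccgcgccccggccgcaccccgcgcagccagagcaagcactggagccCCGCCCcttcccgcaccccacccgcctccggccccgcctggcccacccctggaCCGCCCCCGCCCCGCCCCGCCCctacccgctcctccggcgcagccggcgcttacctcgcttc
SPRY4, chr5:142324248-142324497, minus strand: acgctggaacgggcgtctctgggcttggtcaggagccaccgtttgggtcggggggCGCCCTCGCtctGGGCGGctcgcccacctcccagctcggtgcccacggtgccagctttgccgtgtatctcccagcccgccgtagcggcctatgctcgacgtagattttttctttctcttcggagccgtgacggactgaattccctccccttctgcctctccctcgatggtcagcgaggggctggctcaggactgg
PDZK1, chr1:145707401-145707650, minus strand: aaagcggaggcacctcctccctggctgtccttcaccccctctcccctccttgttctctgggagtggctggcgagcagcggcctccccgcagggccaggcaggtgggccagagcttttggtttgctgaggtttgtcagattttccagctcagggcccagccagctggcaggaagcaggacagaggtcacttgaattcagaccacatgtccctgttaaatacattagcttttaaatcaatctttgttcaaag
S100A7, chr1:153460652-153460901, minus strand: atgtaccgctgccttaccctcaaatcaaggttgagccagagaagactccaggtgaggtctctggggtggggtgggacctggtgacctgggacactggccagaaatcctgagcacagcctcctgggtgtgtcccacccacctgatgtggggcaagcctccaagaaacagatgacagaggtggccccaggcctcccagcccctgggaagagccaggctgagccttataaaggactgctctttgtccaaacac
The RASGRP1, RET and SPRY4 windows hold an EGR match, and those of PDZK1 and S100A7 hold no match to either motif. Windows chosen in this way cannot show a difference between early and late effects. In the wider window searched below, SMAD7, MICB, ASB13 and ARHGEF18, with larger 3 h effects than RET, hold no EGR match. FGFR3, also above RET at 3 h, holds a match. Among the large 24 h effects HEY2 holds a match, and DHRS2, EGFL6, MDM2, FCGR2B and PMAIP1 do not. Whether EGR matches go with early or late effects was not tested.

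RET, the receptor tyrosine kinase for ligands of the GDNF family, stood high at both times. It read 10.52, 10.53, 10.45 and 10.48 in vehicle and 12.68, 12.70, 12.70 and 12.74 with E2 at 3 h, and 10.40, 10.38, 10.36 and 10.41 against 12.14, 12.11, 12.15 and 12.12 at 24 h. Its effects were 2.21 ± 0.03 and 1.74 ± 0.03 (SE of the limma fit, n = 4), so this probe set kept most of the early difference. The other probe sets of RET had effects of 1.16 and 1.32 at 3 h and 1.65 and 1.68 at 24 h. On those the effect was larger at 24 h, so the probe sets differ on how the effect changed. SPRY4, an inhibitor of receptor kinase signalling to Ras, read 8.46, 8.19, 8.28 and 8.30 in vehicle and 10.73, 10.78, 10.67 and 10.54 with E2 at 3 h. Its effect was 2.37 at 3 h and 1.08 at 24 h. FGFR3, a fibroblast growth factor receptor, had effects of 2.23 ± 0.08 and 1.22 ± 0.08. EGFL6, a secreted protein with EGF-like repeats, went the other way: it read 6.56, 6.76, 6.62 and 6.19 in vehicle and 8.26, 8.17, 8.26 and 7.93 with E2 at 3 h, and 7.17, 7.05, 7.12 and 7.18 against 10.49, 10.41, 10.37 and 10.32 at 24 h. That is 1.62 at 3 h and 3.27 at 24 h, or 9.62-fold.

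Across the 21 members of the group of receptors, kinases and Ras and cytokine signalling, the median effect was 1.37 at 3 h and 1.15 at 24 h. The effect was larger at 24 h in 4, smaller in 5 and within the band in 12. EFNB2, a membrane-bound ligand of Eph receptors, had the smallest mean effect, with 0.69 and 0.72. ADRA2A, an adrenergic receptor that couples to inhibitory G proteins, had effects of 2.20 ± 0.13 and 1.15 ± 0.13, and the Fc receptor gene FCGR2B had 1.37 and 1.99. The vehicle means of both lay under 6.11, where a fold is compressed by background. The group also held FGFR2, FRK, RAPGEFL1, PTPN1, DGKZ, SGK1, DEPTOR, RGS16, IGFBP4, IL17RB, TRAF3IP2, SEMA3G and SH3BP5.

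SMAD7, the inhibitory SMAD that blocks TGF-beta receptor signalling, was high early and only slightly high late. It read 8.50, 8.59, 8.54 and 8.65 in vehicle and 11.07, 11.20, 11.15 and 10.94 with E2 at 3 h. By 24 h it read 8.62, 8.71, 8.71 and 8.60 against 9.43, 9.36, 9.33 and 9.33. The groups did not overlap at either time, and the effect was 2.52 ± 0.05 at 3 h and 0.70 ± 0.05 at 24 h. WNT4, a secreted WNT ligand of mammary epithelium, read 7.45, 7.33, 7.42 and 7.36 in vehicle and 9.01, 9.10, 9.05 and 9.01 with E2 at 3 h, and its effects were 1.65 and 1.11. FZD7, a WNT receptor, had the largest mean effect of the 10 TGF-beta, WNT and planar polarity members, with 1.98 ± 0.04 and 1.40 ± 0.04. CELSR1, a planar polarity cadherin, had the smallest, with 0.63 and 0.65. TGIF2, TGFBR3, CELSR2, TPBG, WWC1 and PARD6B made up the rest.

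Among 15 transcription factors and cofactors the median effect was 1.09 at 3 h and 1.00 at 24 h, and 12 kept it within the band. EGR3, a zinc finger factor of the early growth response family, read 4.74, 4.60, 4.39 and 4.69 in vehicle and 8.17, 7.69, 7.98 and 7.86 with E2 at 3 h. At 24 h it read 4.19, 4.19, 4.18 and 4.07 against 7.53, 7.43, 7.49 and 6.82. All vehicle arrays lay in the dim range and all E2 arrays above it, and the effect was 3.32 ± 0.13 and 3.16 ± 0.13. MYC, a driver of growth genes, read 7.34, 7.78, 7.52 and 7.64 in vehicle and 9.92, 9.90, 10.04 and 9.81 with E2 at 3 h. Its effect was 2.35 ± 0.09 at 3 h and 1.02 ± 0.09 at 24 h. HEY2, a repressor downstream of Notch, kept its effect, with 1.98 ± 0.05 and 2.00 ± 0.05. SFMBT1, a Polycomb-related protein, had the smallest mean effect, with 0.63 and 0.61.

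GREB1, a cofactor of the estrogen receptor, read 10.24, 10.14, 10.01 and 9.99 in vehicle and 11.92, 11.74, 11.70 and 11.81 with E2 at 3 h. At 24 h it read 9.55, 9.51, 9.42 and 9.44 against 11.86, 11.85, 11.95 and 11.89. The E2 arrays overlapped between the times while the vehicle arrays were lower at 24 h. On this probe set the effect of 1.70 ± 0.07 at 3 h and 2.41 ± 0.07 at 24 h thus differed on the vehicle side. The other probe sets of GREB1 had smaller effects at 24 h (1.49 and 0.64) than at 3 h (1.97 and 0.74). Their 3 h vehicle means of 4.79 and 6.01 were dim. The remaining factors were NRIP1, CITED1, MYBL1, GATA4, INSM1, MAFF, TFCP2L1, JADE1, LMCD1 and FHL2.

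**Figure D3:**
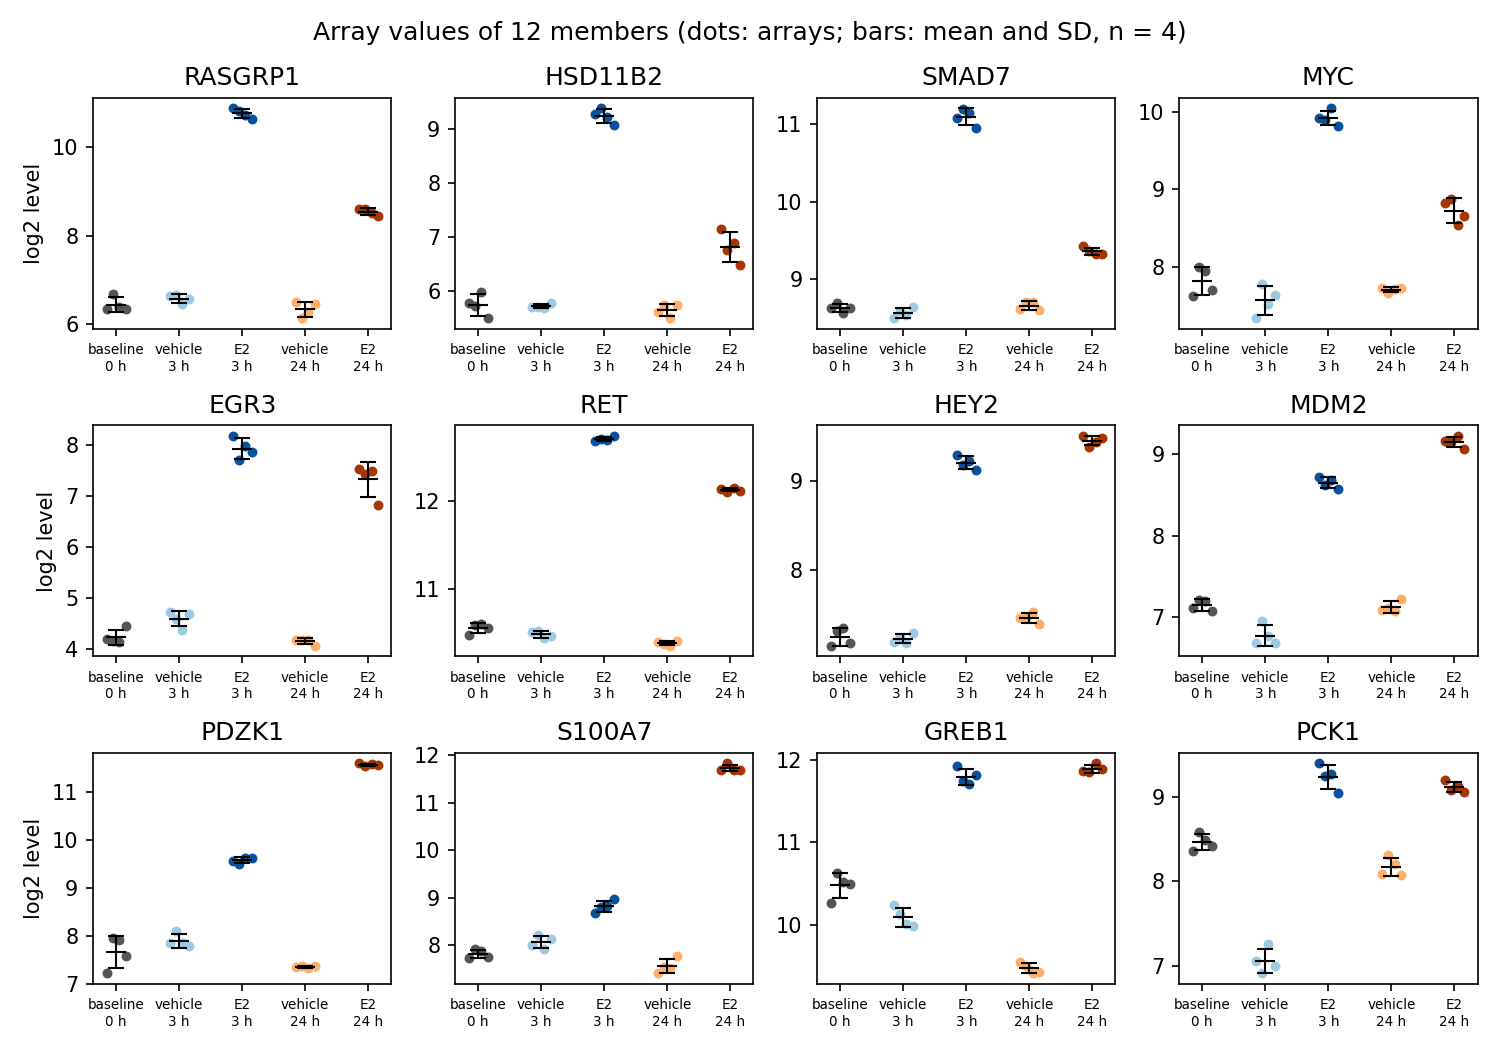
Each panel is 1 of 12 members, with the log2 level of every array as a dot and the mean and SD of 4 arrays as bars, for the baseline, vehicle and E2 groups; panels have their own y axes, which do not start at 0. RASGRP1, HSD11B2, SMAD7 and MYC drop between 3 h and 24 h of E2, HEY2 stays near its 3 h level, and PDZK1 and S100A7 climb.

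The 8 members that act in the cell cycle, cell death and protein turnover had a median effect of 1.84 at 3 h and 0.99 at 24 h. None had a larger effect at 24 h, and 4 had a smaller one. MDM2, the ubiquitin ligase that restrains p53, read 6.69, 6.96, 6.78 and 6.69 in vehicle and 8.72, 8.62, 8.68 and 8.57 with E2 at 3 h, and 7.08, 7.12, 7.08 and 7.23 against 9.16, 9.15, 9.22 and 9.06 at 24 h. It kept its effect, with 1.87 ± 0.06 and 2.02 ± 0.06. PMAIP1, a BH3-only protein that promotes apoptosis, had 1.94 ± 0.07 at both times. SIAH2, a ubiquitin ligase, had 1.82 at 3 h and 1.22 at 24 h, and ASB13, a substrate receptor of a ubiquitin ligase complex, dropped from 2.32 ± 0.04 to 0.63 ± 0.04. DSN1, a kinetochore protein, had the smallest mean effect, with 0.73 and 0.60. CCND1, NINL and OSGIN1 were the others.

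Of the 18 metabolic enzymes, 4 had the larger effect at 24 h, 3 the smaller and 11 stayed within the band, with medians of 1.06 and 1.11. HSD11B2, which turns cortisol into cortisone, read 5.70, 5.70, 5.69 and 5.78 in vehicle and 9.27, 9.38, 9.21 and 9.07 with E2 at 3 h. At 24 h it read 5.60, 5.74, 5.50 and 5.74 against 7.15, 6.77, 6.88 and 6.48. Vehicle was dim at both times, and the effect went from 3.52 ± 0.11 to 1.18 ± 0.11, the largest drop among the members. DHRS2, a short-chain dehydrogenase, read 10.76, 10.67, 10.66 and 10.62 in vehicle and 11.78, 11.69, 11.73 and 11.61 with E2 at 3 h, and 9.96, 10.06, 10.11 and 10.17 against 12.78, 12.73, 12.80 and 12.81 at 24 h. Its effect went from 1.03 ± 0.06 to 2.70 ± 0.06, with E2 higher and vehicle lower at 24 h. ACOX2, a peroxisomal oxidase of branched fatty acids and bile acid precursors, went from 1.31 to 2.48. AMD1, an enzyme of polyamine synthesis, had the smallest mean effect, with 0.77 and 0.69.

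PCK1, the cytosolic enzyme that commits carbon to gluconeogenesis, differed from these in where its change lay. It read 8.36, 8.58, 8.49 and 8.42 at baseline, 7.05, 6.92, 7.25 and 6.99 in vehicle at 3 h and 8.09, 8.31, 8.20 and 8.08 in vehicle at 24 h. With E2 it read 9.40, 9.25, 9.27 and 9.05 at 3 h and 9.20, 9.08, 9.13 and 9.06 at 24 h. The E2 arrays stayed level and above baseline, and the 3 h vehicle arrays lay below every other group. The effect of 2.19 ± 0.08 at 3 h was 0.78 when taken against baseline, and that of 0.95 ± 0.08 at 24 h was 0.66. The other enzymes were PCK2, PFKFB3, FASN, ELOVL2, ALDH4A1, ABAT, TAT, BLVRB, NMRK1, ETNK2, ISYNA1, TIPARP and PADI2.

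PDZK1, a scaffold with PDZ domains that holds transporters at the membrane, had the largest 24 h effect. It read 7.85, 8.10, 7.84 and 7.78 in vehicle and 9.57, 9.49, 9.63 and 9.62 with E2 at 3 h, and 7.34, 7.36, 7.33 and 7.37 against 11.59, 11.53, 11.57 and 11.56 at 24 h. The E2 arrays stood about 2 log2 units higher at 24 h than at 3 h, and the effect was 1.68 ± 0.11, or 3.21-fold, and then 4.21 ± 0.11, or 18.5-fold. Over the 14 transporters, channels and scaffolds the medians were 1.13 and 1.08. APOA1, an apolipoprotein, had the smallest mean effect, with 0.64 and 0.59, and 10 of the 14 stayed within the band. NHERF1, a relative of PDZK1 with PDZ domains, was in the group, with SLC30A1, SLC26A2, SLC7A5, SLC25A36, SLC17A9, SLC31A2, ABCA3, TCIRG1, KCND3, CACNA1I and VLDLR.

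The 5 members placed in the secreted and calcium-binding group all had the larger effect at 24 h, with medians of 0.75 and 1.61. S100A7 (psoriasin), a calcium-binding protein of epithelia, read 8.01, 8.21, 7.92 and 8.13 in vehicle and 8.68, 8.80, 8.83 and 8.97 with E2 at 3 h. By 24 h it read 7.42, 7.54, 7.53 and 7.78 against 11.69, 11.82, 11.69 and 11.69. The effect went from 0.75 ± 0.08 to 4.15 ± 0.08, the largest gain of any member, and 17.8-fold at 24 h. S100A8, a subunit of calprotectin, read 8.94 to 9.10 in vehicle and 9.76, 9.76, 9.66 and 9.60 with E2 at 3 h, and 9.50, 9.68, 9.69 and 9.66 against 11.40, 11.47, 11.44 and 11.43 at 24 h. Here the vehicle arrays also stood higher at 24 h, and the effect was 0.70 and 1.80. ANXA9, an annexin, had the smallest mean effect, with 0.64 and 1.44. TFF2, a trefoil factor, and SERPINA5, a serine protease inhibitor, were the others of the group. Some secreted members were placed in other groups. Of these, EGFL6 also had the larger effect at 24 h, but WNT4 and APOA1 did not.

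**Figure D4:**
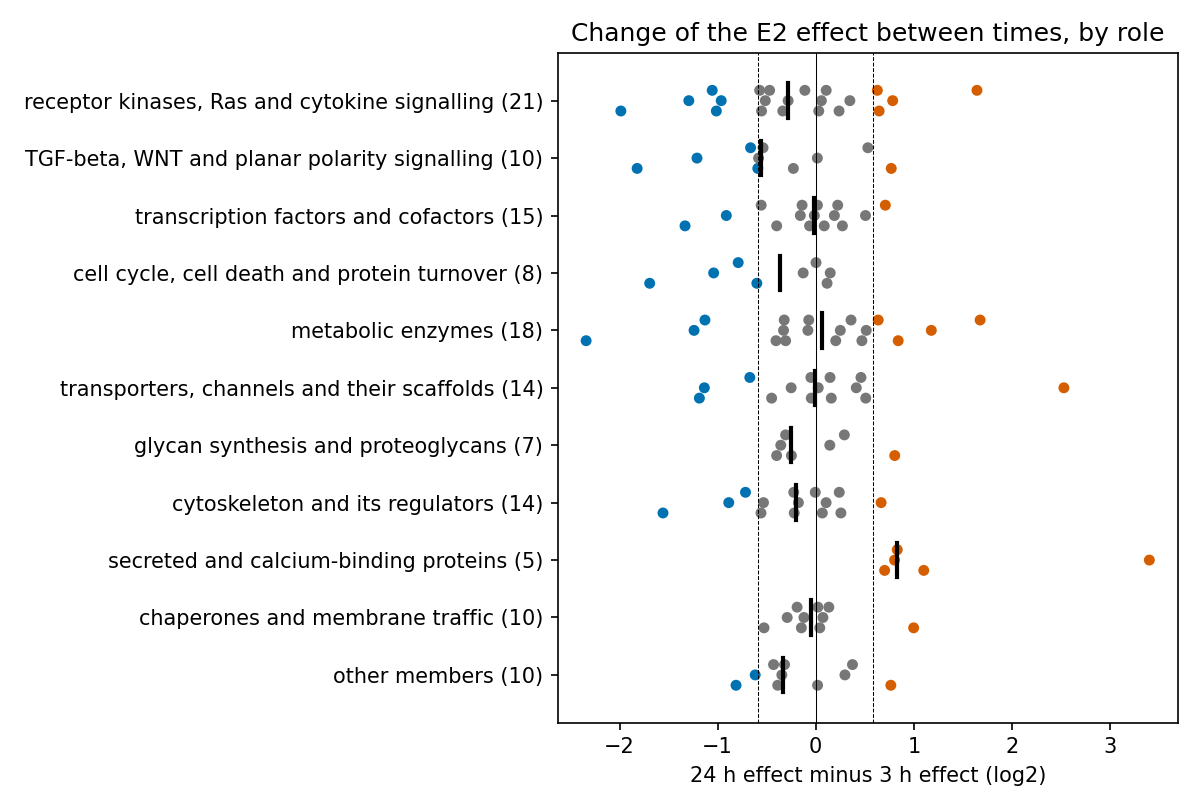
Each point is 1 member, placed by role group on the y axis and by its 24 h effect minus its 3 h effect (log2) on the x axis; a black line is the group median, dashed lines mark 1.5-fold and colours the 3 classes. The class with the larger effect at 24 h holds none of the 8 cell cycle and turnover members. It holds all 5 members placed in the secreted and calcium-binding group. S100A7 at 3.40 and HSD11B2 at -2.34 are the extremes.

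In the 4 remaining role groups most members kept their effect within the band. The 7 enzymes and proteoglycans of glycan synthesis had medians of 1.13 and 0.82. CEMIP2, a cell surface hyaluronidase, had 1.24 and 1.53, and C1GALT1, which builds the core of mucin-type glycans, had 0.67 and 0.82. The 14 members of the cytoskeleton and its regulators had medians of 1.03 and 0.78. EPB41L3, a membrane skeleton protein, had 1.47 and 1.73, and MYOZ1, a sarcomere protein, had 0.61 at both times. The 10 chaperones and membrane traffic members had medians of 1.07 and 1.29. PPIF, the mitochondrial cyclophilin, had 2.18 and 1.65, and FKBP4, a cochaperone of steroid receptors, had 0.62 and 0.70. TPD52L1, a relative of tumour protein D52, had 0.73 ± 0.03 and 0.77 ± 0.03. In the 10 members with other roles MICB, a ligand of the NKG2D receptor, had 2.34 and 1.53, and TMEM120B had 0.72 and 0.74. KRT19, a luminal keratin, had 0.59 and 0.66.

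The vehicle arrays themselves moved against the baseline for part of the members, which bears on how much of an effect lies on the E2 side. limma called 24 members higher in vehicle than at baseline at 3 h (18.2%, against 9.95% of all genes) and 36 lower (27.3%, against 10.1%). At 24 h it called 5 higher (3.79%, against 7.55%) and 31 lower (23.5%, against 4.37%). The genes were chosen for low vehicle relative to E2, and the vehicle arrays are shared with that choice, so an excess of lower vehicle values is favoured by the choice itself. The called differences had a median size of 0.27 (higher) and 0.30 (lower) at 3 h, and of 0.23 and 0.29 at 24 h, in log2 units.

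PCK1 was lowest against baseline in vehicle at 3 h, at -1.41 ± 0.08 (limma, adjusted p = 2.2e-10). The zinc exporter gene SLC30A1 was at -0.73 ± 0.04 (adjusted p = 6.5e-10) and MICB at -0.70 ± 0.05 (adjusted p = 3.2e-09). PARD6B, a polarity protein, and GATA4, a transcription factor, were at -0.66 ± 0.11 and -0.59 ± 0.11. For these genes part of the 3 h effect lay on the vehicle side. On the higher side stood CEMIP2 at 0.84 ± 0.06 (adjusted p = 1.5e-08), TIPARP, a target of the aryl hydrocarbon receptor, at 0.61 ± 0.06, RAB31, a GTPase of membrane traffic, at 0.56 ± 0.05, the LIM protein gene FHL2 at 0.47 ± 0.05 and the kinase gene FRK at 0.43 ± 0.08.

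At 24 h GREB1 was lowest in vehicle against baseline, at -1.003 ± 0.07 (limma, adjusted p = 1.3e-08). RAB31 was at -0.68 ± 0.05 (adjusted p = 3.7e-08), IGFBP4, which binds insulin-like growth factors, at -0.56 ± 0.07, DHRS2 at -0.55 ± 0.06 and the proteoglycan gene SDC2 at -0.50 ± 0.04. The 5 higher members were S100A8 at 0.72 ± 0.05 (adjusted p = 9.4e-09), MYBL1 at 0.31 ± 0.06, ANXA9 at 0.23 ± 0.04, HEY2 at 0.21 ± 0.05 and the sulfotransferase gene CHST1 at 0.21 ± 0.06. RAB31 was thus above baseline at 3 h and below it at 24 h in vehicle.

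**Figure D5:**
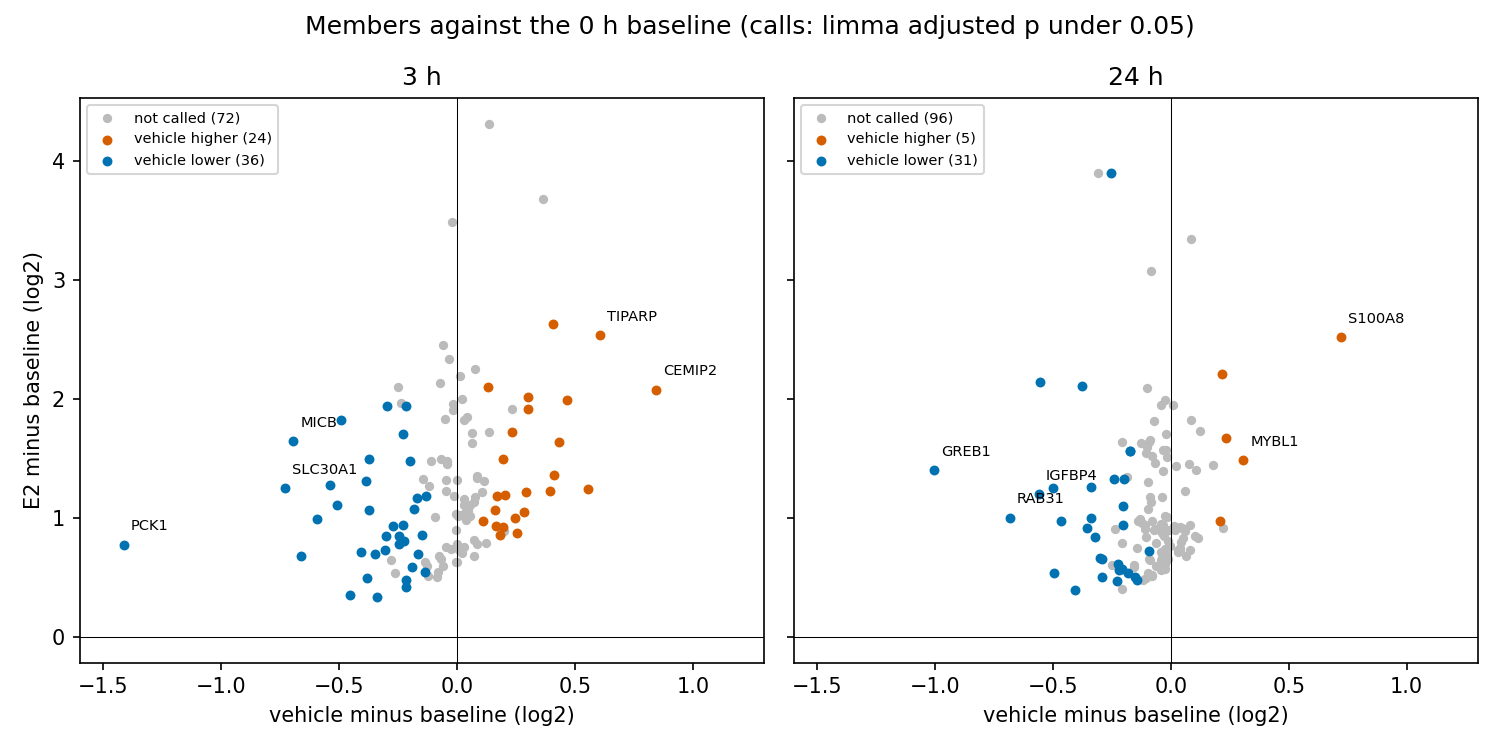
Each point is 1 member at 3 h (left) or 24 h (right), with vehicle minus baseline on the x axis and E2 minus baseline on the y axis, in log2 units; colours mark the limma calls of vehicle against baseline. Every member lies above 0 on the y axis at both times, while PCK1 at 3 h and GREB1 at 24 h lie far to the left.

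Between the vehicle groups themselves, limma called 31 members higher at 24 h than at 3 h (23.5%, against 16.1% of all genes) and 52 lower (39.4%, against 12.8%). Both of these groups entered the choice of the genes, so the choice shapes these counts and their distance from the shares of all genes, and they are given as a description. Vehicle was below baseline at both times in 12 members (against 0.769% of all genes): ASB13, DEPTOR, GATA4, GREB1, MICB, NHERF1, PCK1, SH3BP5, SLC25A36, SLC30A1, SYNPO2L and TGIF2. Vehicle was above baseline at both times in 0 members by limma, and in 0 at an unadjusted p under 0.05 as well, against 1.61% of all genes. In 10 members vehicle was called in opposite directions at the 2 times, against 2% of all genes. For several members the change of the effect between times lay in vehicle more than in E2. From 3 h to 24 h PCK1 changed by -0.12 with E2 and 1.12 in vehicle, RAB31 by -0.24 and -1.24, and GREB1 by 0.09 and -0.62.

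Other probe sets of the same genes, which took no part in the choice, measured the same RNA. There were 80 of them for 47 members, and 76 were above 0 at both times, against 31.5% of the 7101 other probe sets of all measured genes. The 1.5-fold limits at both times were met by 50 of the 80, in 35 members, against 0.958% of those 7101. Of the 62 whose 24 h E2 mean was at least 6.5, 46 met both and 60 were above 0. FGFR2 had 9 further probe sets that ran from -0.08 to 1.07 at 3 h, and the 1 probe set below 0 at both times was among them. The other probe sets of CACNA1I, with 3 h vehicle means of 6.84 and 6.66, stayed near 0. They had 0.11 and -0.04 at 3 h, and -0.04 and 0.14 at 24 h, so the effect of this member rests on its chosen probe set. The chosen probe set has a name ending that marks possible cross-hybridisation (_s_at or _x_at) in 57 members, and the ending is _x_at in 6.

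Close relatives of several members were looked up after their values had been seen. By limma some went the same way as the members and others did not. SMAD6, the other inhibitory SMAD, was lower with E2, at -1.81 ± 0.13 at 3 h (adjusted p = 6.2e-10) and -1.18 at 24 h (adjusted p = 2.4e-07), where SMAD7 was higher. SPRY1 was lower at -1.04 (adjusted p = 2.6e-10) and -0.99 (adjusted p = 4.4e-10), where SPRY4 was higher. FGFR1 was lower at -0.31 and -0.44, and FGFR4 was not called at either time, at -0.07 (adjusted p = 0.31) and 0.09 (adjusted p = 0.13). S100A9, the partner of S100A8 in calprotectin, was not called, at -0.01 (adjusted p = 0.93) and 0.10 (adjusted p = 0.21). EGR1 was not called at 3 h, at 0.18 (adjusted p = 0.15), or at 24 h, at 0.11 (adjusted p = 0.36). EGR4 was called higher only at 24 h, at 0.19 (adjusted p = 0.042). MICA, a relative of MICB, was higher at 0.15 (adjusted p = 0.033) and 0.23 (adjusted p = 0.0014). ARMCX2 was higher at 0.97 (adjusted p = 9.4e-13) and 0.51 (adjusted p = 1.5e-08), like the members ARMCX3 and ARMCX6. ARMCX5 was lower at -0.55 (adjusted p = 2.4e-09) and -0.52 (adjusted p = 4.8e-09). ARMCX1 was higher by 0.19 at 3 h and lower at -0.28 at 24 h (adjusted p = 0.002 and 2.6e-05), and ARMCX4 was not called. The group means of S100A9 (4.42 to 4.52), EGR4 (5.70 to 5.95) and ARMCX4 (5.48 to 5.59) all lay under 6.11. At such dim levels background can hide a response, so these genes cannot show whether they differ from the members.

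A list of estrogen-induced genes of ductal breast cancer lines held 51 measured genes, of which 26 were members, against 1.1% of all genes. The list was drawn up with earlier results of these data known, so its counts are a description and no separate support. Of the other 25, limma called 17 higher and 2 lower at 3 h, and 16 higher and 4 lower at 24 h, where 13.5% and 21.5% of all genes were called higher and 17.6% and 24.2% lower. PGR, the progesterone receptor gene, was higher by 1.01 (adjusted p = 1e-05) and 0.72 (adjusted p = 0.00031) but fell short of the level minimum. TFF1, a trefoil factor gene and standard estrogen target, was called higher by 0.12 and 0.14. Its mean was already 13.50 at baseline, among the highest levels measured, and 13.63 and 13.72 with E2. Whether the upper range of the arrays limited its difference was not tested. ESR1, the receptor gene itself, was lower by limma at 3 h, at -0.29 (adjusted p = 1.2e-07), and at 24 h, at -0.18 (adjusted p = 6.5e-05).

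Pathway partners of several members were counted beside the shares of all genes, which were 13.5% higher and 17.6% lower at 3 h, and 21.5% higher and 24.2% lower at 24 h. Beside RASGRP1 and SPRY4, 15 other regulators of Ras and MAP kinase signalling were measured. At 3 h limma called 1 higher and 8 lower, and at 24 h 0 higher and 9 lower, with 0 higher at an unadjusted p under 0.05 too. DUSP6, a phosphatase of ERK, was among the lower ones at -1.59 and -1.08. Beside SMAD7, TGIF2 and TGFBR3, 32 other TGF-beta and BMP genes were measured, of which 4 were higher and 17 lower at 3 h. At 24 h 0 were higher and 16 lower, with 1 higher at an unadjusted p under 0.05. Beside WNT4 and FZD7, 25 other WNT genes gave 2 higher and 9 lower at 3 h, and 3 and 5 at 24 h, where the lower count was near the share of all genes. Beside CCND1, 34 other genes of the G1 to S transition and DNA replication were measured. Of these 34, 9 were higher and 4 lower at 3 h, and 32 and 1 at 24 h.

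The RefSeq promoter table (GRCh38.p14, 250 bases before to 50 after each start) matched 103 of the 132 members by symbol, with 171 promoters. Motifs were searched on both strands. The estrogen response element was found in 0 of the 171, also with 1 mismatch allowed, against 0.0213% and 0.534% of promoters of measured genes. The EGR motif GCGNGGGCG was in 33 (19.3%, against 13.3%), the E-box CACGTG in 21 (12.3%, against 8.76%), and the SP1 motif GGGCGG, which can overlap the EGR motif, in 115 (67.3%, against 59.2%). The AP-1 motif TGANTCA was in 9 (5.26%, against 6.06%) and the forkhead motif TGTTTAC in 0, against 2.82%. The cyclic AMP response element TGACGTCA was in 6 (3.51%, against 2.58%), near the share of measured genes. These are matches to letters in a window near the start, and say nothing of sites elsewhere. The promoters with the cyclic AMP response element belong to LMCD1, SLC25A36, PDLIM3, TMEM120B, TGIF2 and MAFF. The 4 in which it lies upstream of the start are shown as examples only, in capitals within 48 bases, 5' to 3' on the gene's strand.
LMCD1, chr3:8501620-8501667, plus strand: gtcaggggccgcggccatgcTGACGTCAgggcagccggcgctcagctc
SLC25A36, chr3:140941699-140941746, plus strand: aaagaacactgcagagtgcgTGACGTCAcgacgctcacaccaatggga
PDLIM3, chr4:185535528-185535575, minus strand: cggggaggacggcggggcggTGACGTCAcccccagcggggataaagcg
MAFF, chr22:38201920-38201967, plus strand: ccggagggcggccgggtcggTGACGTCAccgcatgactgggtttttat
The match spans bases -183 to -176 from the start in LMCD1, -117 to -110 in SLC25A36, -48 to -41 in PDLIM3 and -54 to -47 in MAFF. LMCD1 is a LIM domain cofactor, SLC25A36 a mitochondrial carrier of pyrimidine nucleotides, PDLIM3 a PDZ and LIM protein of the actin cytoskeleton, and MAFF a small basic leucine zipper factor.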

How the data were processed

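Values were log2 expression per probe set on 20 arrays in 5 groups of 4, which the authors computed using RMA (affy), as the submitters' processing notes state; their versions are not given here. RMA with quantile normalization would hide a change of total RNA per cell. Of 22277 probe sets, 62 controls were left out; 19064 had 1 gene symbol in the platform annotation, 1043 several and 2108 none. For each of 11963 genes the single-symbol probe set with the highest mean was used; probe sets of different genes were not compared in level.

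limma 3.58.1 (R 4.3.3) was fitted to all 20 arrays with 1 mean per group and no block, with Benjamini-Hochberg adjustment over all genes, a threshold of 0.05 and two-sided tests. Standard errors are from that fit. On simulated data for vehicle at 3 h against baseline it recovered 70% of genes changed 1.25-fold, the low fold limit of the alternatives, and 100% at 1.5-fold; at 24 h it recovered 84% and 100%.

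The members, gene lists and motifs were chosen with earlier results of these data known, and the role groups were assigned by hand after the members were known. Members were named with values by rule: the 12 largest effects at each time, the 6 largest changes between times in each direction, the 5 largest called vehicle differences in each direction at each time, the 5 highest means, the 4 nearest each limit, the largest and smallest mean effect of each role group, and GREB1, PGR, TFF1, MYC, RET, EGR3, RASGRP1, WNT4, SMAD7, SIAH2 and PDZK1. Of the members this rule names, 1 is not reported here. FGFR2, CACNA1I, DUSP6, ESR1 and the relatives of members were chosen after their values were seen. Alternatives covered array scaling, the probe set per gene, limits on fold and level, arrays in the fit, dim genes, the variance prior, array weights, a replicate block and leaving out each array.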

Additional observations from a re-analysis of the deposited data

Results flagged for a closer look

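In 6 of the 100 groups of 4 arrays examined over 20 members, 1 array lay far from the other 3 by Dixon's ratio, and chance gives about 1 in 20. S100A7 read 11.82 on 1 of its 24 h E2 arrays, and S100A8 read 9.50 on 1 of its 24 h vehicle arrays. HSD11B2 read 5.78 on a 3 h vehicle array, and RASGRP1 read 6.69 on a baseline array. EGR3 read 4.07 on a 24 h vehicle array and 6.82 on a 24 h E2 array; the latter was the widest gap of the 6, and the array still lay far above the vehicle arrays.

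In 10 members vehicle differed from baseline in opposite directions at the 2 times, each passing limma's adjusted threshold, and the difference between the vehicle groups passed it too. The vehicle arrays also served to choose the members, so the choice shapes these values. Vehicle at 24 h minus vehicle at 3 h was -1.24 for RAB31, -0.79 for PDLIM3, -0.77 for FHL2, -0.73 for INSM1, -0.57 for ACOX2, -0.54 for HSPB8, -0.50 for S100A7 and -0.44 for AMMECR1. It was 0.55 for MYBL1 and 0.62 for CHST1.

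Among probe sets with several gene symbols or none, which were outside the gene table, 13 met the same limits on difference and level.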

How the results depend on the processing

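Over 101 alternatives for the counts of members, 94 stayed within 1.5 times of the reported count, 7 moved further and 0 reversed. Of the 132 members, 75 remained when those whose chosen probe set has a name that marks possible cross-hybridisation were dropped. The limits were not applied again to other probe sets of those genes. The alternatives of a 2-fold limit and of the low fold limit gave 48 and 287. The others gave 103 to 139, with 133 when baseline replaced vehicle, of which 108 were shared with the 132, and 133 with the level minimum set on the 3 h E2 arrays, an alternative chosen after seeing the data. Leaving out 1 array gave 127 to 135. With calls that also passed the low fold limit, vehicle against baseline gave 8 higher and 16 lower at 3 h, and 1 higher and 12 lower at 24 h. Leaving out 1 array gave 21 to 25 and 30 to 40 at 3 h, and 4 to 5 and 24 to 37 at 24 h; vehicle between the times gave 70 to 80, against 83. Of 200 alternatives for single members, 195 kept their call, and the 5 that lost it were all CHST1 in vehicle at 24 h, without baseline replicate A, C or D or vehicle replicate C or D (0.19 to 0.21).

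The replicate letters are shared by the groups, but same-letter deviations correlated at -0.25 to 0.37, and 6 of 40 correlations were over 0.1, so the letters were not taken to pair the arrays. With a replicate block the counts were 24 and 35 at 3 h, 6 and 32 at 24 h, and 80 between the vehicle groups, and 103 genes met the limits in every same-letter difference. Signal near background limits the folds of the 7 members with dim vehicle arrays at 3 h and the 6 at 24 h.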

Other observations

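Some members were neighbours. Among measured genes in the order of the RefSeq gene table, 14 members formed 7 adjacent pairs: S100A8 and S100A7 on chromosome 1, NMRK1 and OSTF1 on chromosome 9, MYOZ1 and SYNPO2L on chromosome 10, TMEM120B and RHOF on chromosome 12, PTPN1 and PARD6B on chromosome 20, and ARMCX6 with ARMCX3 and TMEM164 with AMMECR1 on chromosome X. TMEM120B and RHOF lie on opposite strands with overlapping ends. Both S100 genes had the larger effect at 24 h. How often adjacent pairs arise among other sets of genes was not tested.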
